A study of Mus musculus with 4 samples.

Results

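Histone acetyltransferases, histone deacetylases and acetyl-lysine readers were followed in CD8+ T cells that had infiltrated mouse tumours. A fixed list of 43 gene symbols was looked up in a table of 24537 genes, and all 43 were found. Of these, 40 averaged 1 FPKM or more (fragments per kilobase of exon, scaled to the total tags of the library) over the 4 libraries and are called measured below. They comprised 10 of 11 writer enzymes, 10 of 10 subunits of writer complexes, 9 of 11 zinc-dependent erasers, 6 of 6 sirtuins and 5 of 5 readers. The list was drawn up from the known functions of the genes, at a time when earlier results of these data were known. The data comprised 2 libraries of cells labelled ACSS2NLS and 2 libraries of cells labelled EV, the control. Both groups were CD8+ cells from B16-GP33 tumours at day 21, where B16 denotes a melanoma line of mouse origin and GP33 a viral epitope recognised by CD8+ T cells. NLS usually stands for nuclear localisation signal. Strain, age and the way in which the construct was delivered are not stated in the labels, and neither is whether the libraries came from separate mice. The p-values therefore reflect the spread among these 4 libraries alone, part of which may be technical.

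Histone acetylation is set by opposing enzymes. Acetyltransferases, the writers, move the acetyl group of acetyl-CoA onto lysines of histone tails, mostly as parts of large complexes such as SAGA and TIP60. Deacetylases, the erasers, remove it; HDACs use zinc and sirtuins use NAD. Readers bind acetylated lysine through a bromodomain and recruit transcription and remodelling machinery. ACSS2 makes acetyl-CoA from acetate, so the writers use the product of the enzyme named in the ACSS2NLS label. In CD8+ T cells, changes of histone acetylation accompany activation, memory formation and exhaustion.

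Acss2 was at 80.7 and 86.3 FPKM in the ACSS2NLS libraries, against 3.66 and 3.92 FPKM in the EV libraries, so the level of the gene matched the labels. The T cell genes Cd3e and Cd8a were high in all 4 libraries: Cd3e was at 315 and 332 FPKM in ACSS2NLS and at 346 and 344 FPKM in EV, and Cd8a at 161 and 145 FPKM in ACSS2NLS and at 186 and 161 FPKM in EV. The 9 T cell markers with a row summed to 2152 and 1704 FPKM in ACSS2NLS replicates 1 and 2, and to 2320 and 1930 FPKM in EV replicates 1 and 2. In each group the T cell sum was lower in replicate 2. Transcripts of other tumour cells were present and uneven. The summed level of 9 melanoma markers was 13.8 and 180 FPKM in ACSS2NLS replicates 1 and 2, against 7.62 and 46.2 FPKM in EV replicates 1 and 2, and that of 13 myeloid markers was 206 and 763 FPKM, against 130 and 479 FPKM. Of these lists 7 of 9 and 13 of 13 genes averaged 1 FPKM or more, and the value of S100a9 in ACSS2NLS replicate 1 was the single one listed at 0. By these sums replicate 2 of each group held more such RNA than replicate 1. The myeloid genes Cd14, S100a8 and S100a9 departed from the sum: S100a8 was at 0.053 and 0.802 FPKM in ACSS2NLS and at 3.21 and 24.4 FPKM in EV, and all 3 were highest in EV replicate 2. Each library held 46000000 to 49300000 tags, and a measured histone acetylation gene had 125 to 7181 tags in a library.

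No gene of histone acetylation rose or fell in ACSS2NLS cells past the test. Of the 40 measured genes, 0 passed limma-trend with Benjamini-Hochberg adjustment over 9810 genes at a threshold of 0.05, where 0.0204% of all genes tested passed, all of them upward. The summed levels of writers, of erasers and of readers each differed between the groups by less than the larger of the SDs of the replicates. Their log2 changes, ACSS2NLS minus EV on the log2(FPKM + 1) scale, ran between -0.40 for Hdac6, a mainly cytoplasmic deacetylase, and 0.34 for Ing4, a subunit of writer complexes. The median was 0.013, against 0.015 for all genes tested, and 21 genes had a higher and 19 a lower mean. At an unadjusted p under 0.05 there were 0 of the 40, against 5.97% of all genes tested.

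The size of change that the data allow can be read from the 95% intervals of limma. All 40 intervals held 0. These intervals are for FPKM + 1. On that scale the whole interval lay within 1.5-fold either way for 30 of the genes, for 6 it reached past 1.5-fold upward and for 4 past 1.5-fold downward. In low genes the same interval covers a wider fold in FPKM itself, and turned into FPKM at the EV level it lay within 1.5-fold for 19 of the 40. The widest reach downward was -0.88 for Ing3 and the widest upward was 0.79 for Ing4. The median half-width was 0.38 on the log2(FPKM + 1) scale. A p that misses the threshold does not show that a gene was equal in both groups, and for 2 against 2 libraries the smallest p of an exact permutation test is 0.33.

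**Figure D1:**
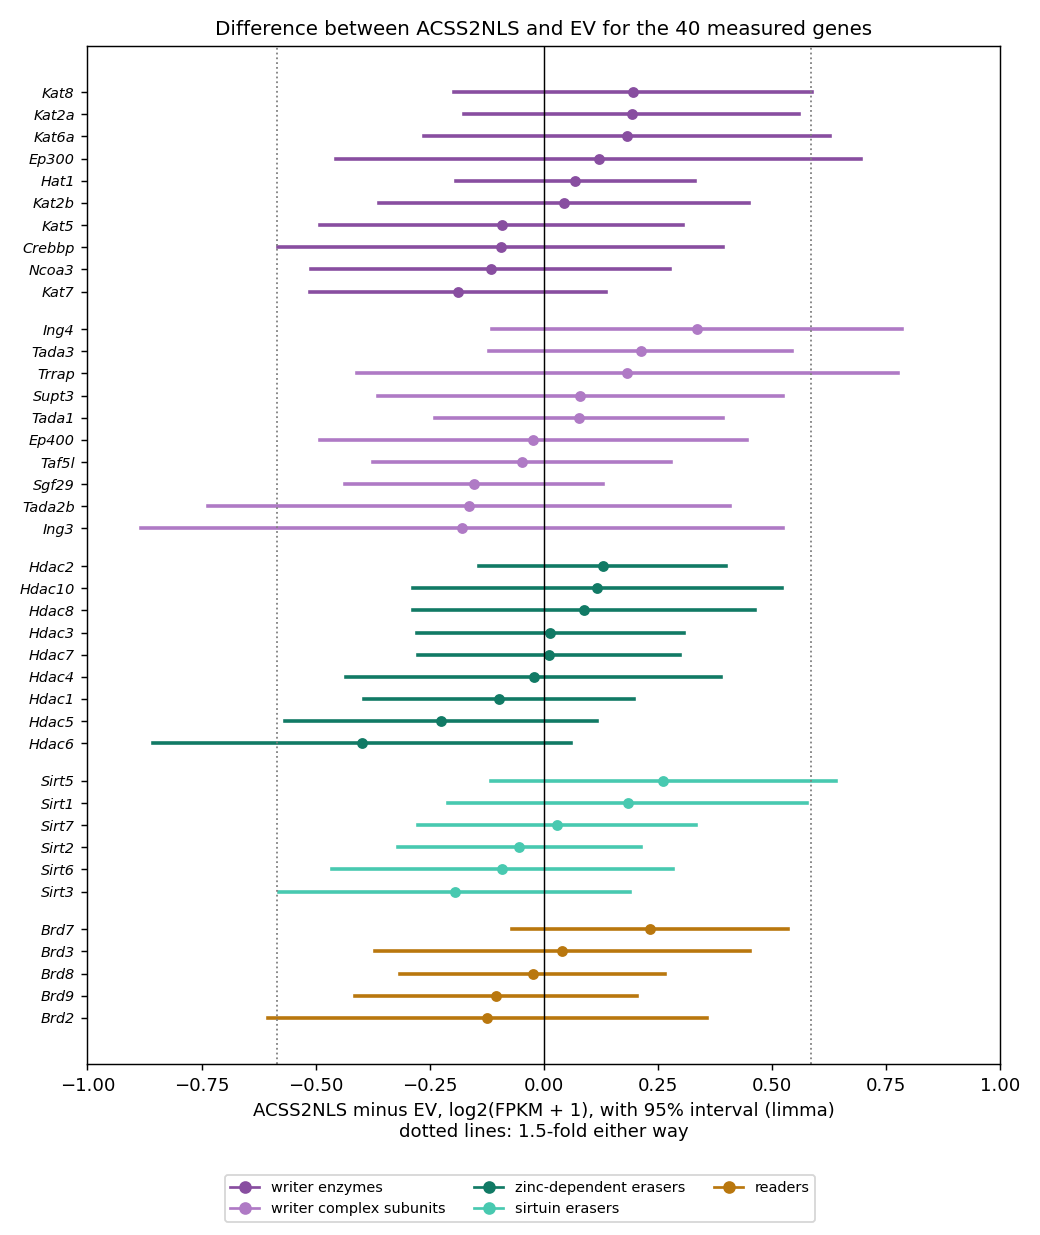
Difference between ACSS2NLS and EV for each of the 40 measured genes on the log2(FPKM + 1) scale (horizontal axis), with its 95% interval from limma, grouped and coloured by role; n = 2 libraries per group, and dotted lines mark 1.5-fold in FPKM + 1. All 40 intervals cross 0, and Hdac6 and Ing4 lie farthest from it.

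The 2 groups did not overlap for 15 of the 40 genes, or 37.5%, where the share over all genes tested was 37.4%. Both ACSS2NLS libraries were above both EV libraries for 9 genes (19.3% of all genes tested) and below them for 6 (18.1% of all genes tested). For 9 of the 40 the difference between the groups was larger than the difference between replicates in either group. These were Sirt5, Brd7, Tada3, Sirt1, Hdac2 and Hat1, with the higher mean in ACSS2NLS, and Hdac6, Hdac5 and Sgf29, with the lower. The share of all genes tested with such a difference was not worked out, so these 9 cannot be said to stand out. Over the 40 genes the median difference between groups was 0.12 in size on the log2(FPKM + 1) scale, against a median difference between replicates of 0.19 in ACSS2NLS and 0.13 in EV. The former is between means of 2 libraries and the latter between single libraries. Even where groups do not differ the former is therefore the smaller one on average, so the sizes cannot be compared directly.

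Promoters are shown for the most abundant writer, Hat1, and for the genes with the lowest and the highest log2 change, Hdac6 and Ing4. They are RefSeq windows of 300 bases on GRCm38.p6, from 250 bases before the start of the transcript, written 5′ to 3′ on the strand of the gene. The windows are chr2:71389010-71389309 (plus strand), chrX:7947840-7948139 (minus strand) and chr6:125039598-125039897 (plus strand). Capitals mark matches, on either strand, to the GC box GGGCGG, the ETS motif CCGGAAG, the CCAAT box CCAAT and the E-box CACGTG, none of which contains another.
Hat1: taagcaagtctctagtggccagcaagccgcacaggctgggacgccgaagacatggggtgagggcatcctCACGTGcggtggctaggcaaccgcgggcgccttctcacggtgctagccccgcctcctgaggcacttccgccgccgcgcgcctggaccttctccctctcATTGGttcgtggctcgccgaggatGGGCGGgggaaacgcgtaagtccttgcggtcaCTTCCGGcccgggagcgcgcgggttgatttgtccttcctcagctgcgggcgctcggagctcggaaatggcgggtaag
Hdac6: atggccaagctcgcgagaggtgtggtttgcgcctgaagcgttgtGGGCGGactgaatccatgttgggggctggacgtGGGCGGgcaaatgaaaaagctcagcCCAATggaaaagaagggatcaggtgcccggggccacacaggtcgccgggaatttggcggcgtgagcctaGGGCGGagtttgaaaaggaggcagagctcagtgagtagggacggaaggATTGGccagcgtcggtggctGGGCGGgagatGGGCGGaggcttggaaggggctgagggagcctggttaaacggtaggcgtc
Ing4: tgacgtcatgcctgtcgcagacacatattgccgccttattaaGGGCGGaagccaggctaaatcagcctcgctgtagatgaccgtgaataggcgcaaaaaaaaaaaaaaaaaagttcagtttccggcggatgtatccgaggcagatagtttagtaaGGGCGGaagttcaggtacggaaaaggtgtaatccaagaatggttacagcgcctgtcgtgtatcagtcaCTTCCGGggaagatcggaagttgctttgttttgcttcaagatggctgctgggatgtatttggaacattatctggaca
The Hdac6 window held 5 GC boxes and 2 CCAAT boxes. The Ing4 window held 2 GC boxes and 1 ETS motif, and the Hat1 window held 1 match each to the GC box, the ETS motif, the CCAAT box and the E-box. Of the 43 genes 36 were in the RefSeq table, and 32 had a window within 50 bases of the deposited transcript start. Of these 32, 23 held a GC box, or 71.9%, against 66.2% of the windows of genes tested. The 32 include Kat6b, Hdac9 and Hdac11, which averaged below 1 FPKM and are not among the genes tested. An ETS motif was in 28.1% of the windows of the 32 genes and in 22.5% of those of genes tested, a CCAAT box in 40.6% and 39.3%, and an E-box in 12.5% and 10.6%. A match describes letters and not a bound site.

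FPKM divides by the exon length of 1 transcript per gene, so levels of genes can be set side by side only roughly. Replicates still differed by transcript length after that scaling, as given below. The measured genes spanned mean levels of 1.62 FPKM for Kat2b to 38.4 FPKM for Sirt7. In order of mean FPKM, the top 8 were Sirt7, Hat1, Brd2, Hdac3, Hdac7, Sirt2, Hdac2 and Hdac1, among them 6 erasers. Sirt7 and Hat1 were close, at 38.4 and 36.5 FPKM over the 4 libraries, and their ranges overlapped. Hdac3, Hdac7, Sirt2 and Hdac2 lay between 25.6 and 28.0 FPKM and were not separated beyond the spread of the libraries. Around the limit of 1 FPKM, the lowest measured genes were Kat2b at 1.62 and Kat6a at 1.84 FPKM, and the highest gene below it was Kat6b at 0.365 FPKM.

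**Figure D2:**
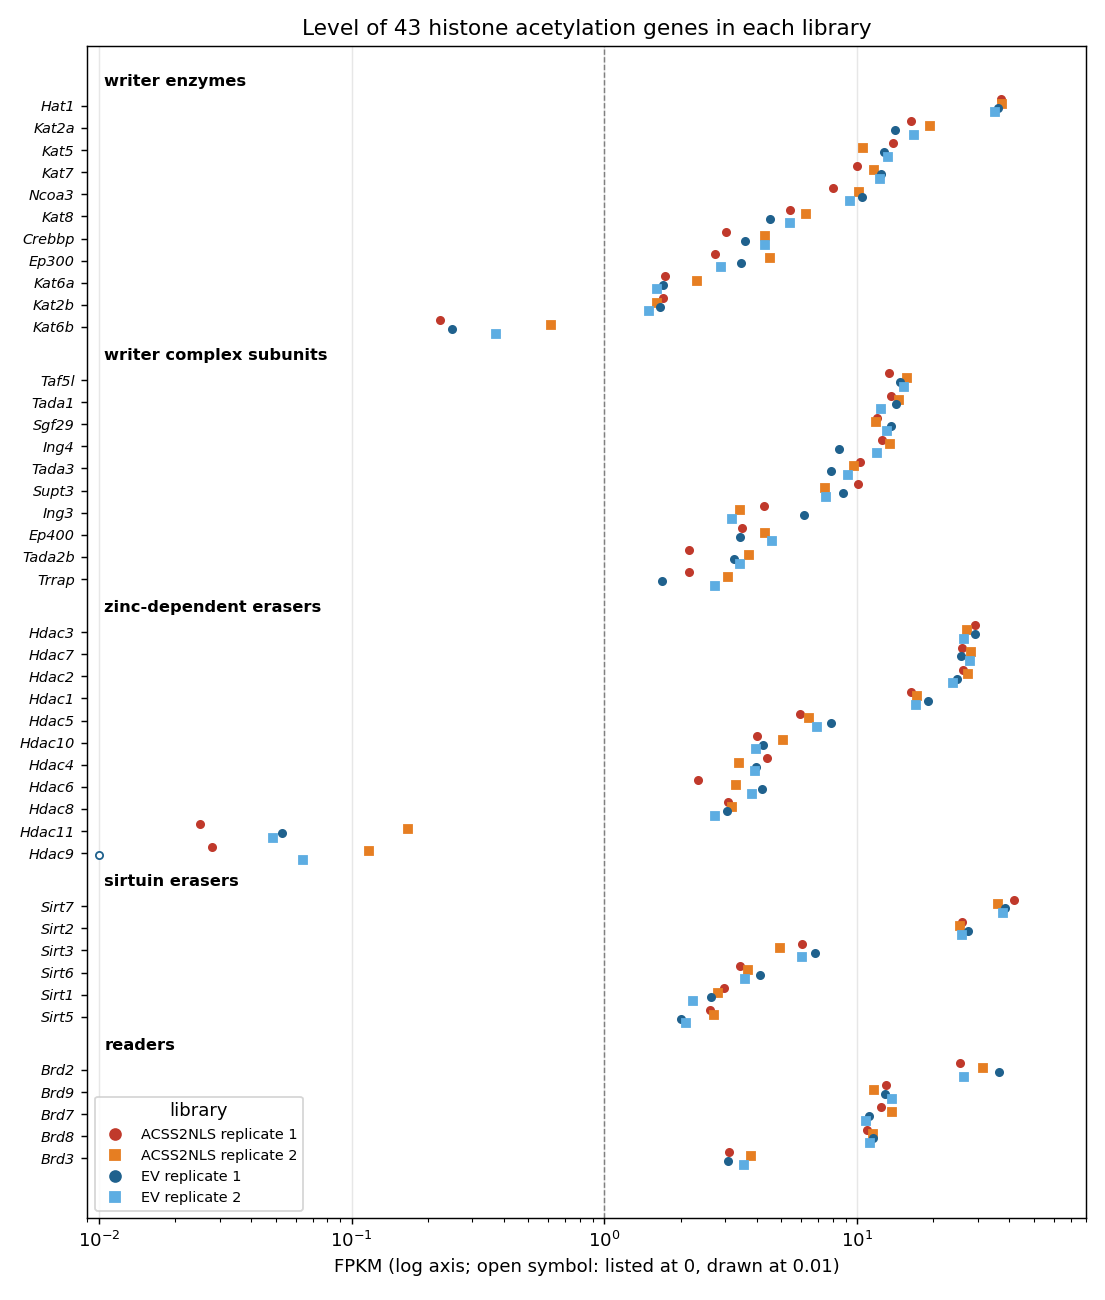
Level of each of the 43 genes in FPKM on a log axis, grouped by role, with 1 symbol per library; red and orange are ACSS2NLS replicates 1 and 2, and dark and light blue are EV replicates 1 and 2. The dashed line marks 1 FPKM: Kat6b, Hdac11 and Hdac9 lie below it, and Sirt7 and Hat1 lead the order.

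Among the writer enzymes, Hat1, which acetylates newly made histone H4 before it is deposited on DNA, was the most abundant. It was at 37.2 and 37.5 FPKM in ACSS2NLS and at 35.9 and 35.2 FPKM in EV. The groups did not overlap, but the log2 change of 0.069 ± 0.10 (moderated SE, n = 2 per group) was small and did not pass (limma, adjusted p = 0.916). Here and below the SE of a log2 change is limma's, drawn from the replicates of the gene together with all genes tested. Kat2a, which encodes GCN5, the catalytic subunit of SAGA and ATAC, was at 16.3 and 19.4 FPKM in ACSS2NLS and at 14.2 and 16.8 FPKM in EV. Replicate 2 was the higher one in both groups, and the ACSS2NLS and EV ranges overlapped. Its paralogue Kat2b, which encodes PCAF, was at 1.71 and 1.61 FPKM in ACSS2NLS and at 1.66 and 1.5 FPKM in EV. In every library Kat2a was thus the higher of the pair in FPKM, at 9.53 and 12.0 times the level of Kat2b in ACSS2NLS and 8.54 and 11.2 times in EV.

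The MYST acetyltransferases differed from each other in level and not detectably between the groups. Kat7, which encodes HBO1, was at 9.95 and 11.6 FPKM in ACSS2NLS and at 12.5 and 12.3 FPKM in EV. Both ACSS2NLS libraries were below both EV libraries, with a log2 change of -0.19 ± 0.13 that did not pass (limma, adjusted p = 0.829) and ran between -0.29 and -0.085 when each library was left out. Kat8, which encodes MOF, which acetylates histone H4, was at 5.40 and 6.26 FPKM in ACSS2NLS and at 4.51 and 5.43 FPKM in EV, with overlapping groups and a log2 change of 0.20 ± 0.16, or 0.084 to 0.31 when each library was left out. Kat5, the catalytic subunit of TIP60, was at 13.9 and 10.5 FPKM in ACSS2NLS and at 12.8 and 13.2 FPKM in EV, so the ACSS2NLS libraries lay on both sides of the EV ones. Kat5 shares 426 exon bases with Rnaseh2c on the other strand, and reads of such pairs cannot be told apart where strand is not kept. The same holds for 122 exon bases of Kat8 with Prss8, 154 of Ncoa3 with Sulf2 and 411 of Tada2b with Grpel1.

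Kat6a and Kat6b, which encode the paralogues MOZ and MORF, were the lowest of the family. Kat6a was at 1.74 and 2.32 FPKM in ACSS2NLS and at 1.70 and 1.61 FPKM in EV. Its groups did not overlap, and the log2 change of 0.18 ± 0.18 did not pass (limma, adjusted p = 0.866). Kat6b was at 0.223 and 0.614 FPKM in ACSS2NLS and at 0.249 and 0.373 FPKM in EV. Both were highest in ACSS2NLS replicate 2, the library with the highest sums of melanoma and myeloid markers, and the part of that RNA in their level was not tested.

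Ep300 and Crebbp encode p300 and CBP, the paired coactivators that acetylate histones at enhancers. Ep300 was at 2.73 and 4.51 FPKM in ACSS2NLS and at 3.47 and 2.90 FPKM in EV. Crebbp was at 3.04 and 4.33 FPKM in ACSS2NLS and at 3.61 and 4.32 FPKM in EV. Both pairs of groups overlapped, and ACSS2NLS replicate 2 was the highest library for each gene. The ratio of Ep300 to Crebbp was 0.899 and 1.04 in ACSS2NLS, against 0.961 and 0.671 in EV, so neither paralogue was the leading one throughout. Ncoa3, a nuclear receptor coactivator that binds p300 and CBP, was at 8.02 and 10.2 FPKM in ACSS2NLS and at 10.5 and 9.34 FPKM in EV, with overlapping groups.

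Subunits of the writer complexes lay within a narrower band of levels. The 6 SAGA subunits summed to 61.3 and 63.2 FPKM in ACSS2NLS and to 62.5 and 60.9 FPKM in EV. Taf5l, a core SAGA subunit, led them at 13.3 and 15.8 FPKM in ACSS2NLS and at 14.7 and 15.3 FPKM in EV. Those EV values lay inside the range of the ACSS2NLS ones. Tada3, an adaptor of the acetyltransferase module shared by SAGA and ATAC, was at 10.3 and 9.74 FPKM in ACSS2NLS and at 7.89 and 9.15 FPKM in EV. Both ACSS2NLS libraries were above both EV libraries, with a log2 change of 0.21 ± 0.13 that did not pass (limma, adjusted p = 0.822), or 0.12 to 0.31 when each library was left out. Sgf29, which binds methylated histone H3 in the same module, went the other way at 11.9 and 11.9 FPKM in ACSS2NLS and at 13.6 and 13.1 FPKM in EV, with a log2 change of -0.15 ± 0.11 that did not pass either. Sgf29 shares 230 exon bases with genes on the opposite strand.

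The other SAGA subunits showed the spread between replicates more than one between groups. Tada2b, an adaptor of the acetyltransferase module of SAGA, was at 2.17 and 3.74 FPKM in ACSS2NLS and at 3.26 and 3.43 FPKM in EV. Supt3 was at 10.03 and 7.46 FPKM in ACSS2NLS and at 8.80 and 7.53 FPKM in EV. Both genes had overlapping groups and their widest gap inside ACSS2NLS. Tada1 was at 13.6 and 14.6 FPKM in ACSS2NLS and at 14.2 and 12.4 FPKM in EV, again with overlap, and 1434 of its 2215 annotated exon bases are also exons of genes on the opposite strand, Pogk the largest of them.

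Ing4 had the highest log2 change of the 40. ING4 is a plant homeodomain finger protein of the HBO1 acetyltransferase complexes. Ing4 (NM_133345, mm10 chromosome 6, plus strand) was at 12.6 and 13.5 FPKM in ACSS2NLS and at 8.49 and 12.0 FPKM in EV. The groups did not overlap, but EV replicate 2 lay closer to the ACSS2NLS libraries than to EV replicate 1. The log2 change was 0.34 ± 0.18 and did not pass (limma, adjusted p = 0.81); it was 0.11 without EV replicate 1 and 0.56 without EV replicate 2. The annotation places a noncoding transcript on the same strand over 1649 of the 1708 exon bases of Ing4, so reads there cannot be assigned to either with certainty. Ing3, its relative in the TIP60 complex, was at 4.29 and 3.43 FPKM in ACSS2NLS and at 6.15 and 3.20 FPKM in EV, where EV replicate 1 stood above the other libraries.

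Ep400, the remodelling ATPase of TIP60, and Trrap, the scaffold that TIP60 shares with SAGA, were low per length. Ep400 was at 3.51 and 4.32 FPKM in ACSS2NLS and at 3.42 and 4.61 FPKM in EV. Trrap was at 2.16 and 3.08 FPKM in ACSS2NLS and at 1.68 and 2.74 FPKM in EV. In both genes replicate 2 was the higher library in each group, and that gap was wider than the one between the groups.

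The class I deacetylases carried more RNA than the other HDAC classes in every library, and less than the 6 sirtuins together, which summed to 82.6 and 75.6 FPKM in ACSS2NLS and to 81.2 and 77.6 FPKM in EV. Hdac1, Hdac2, Hdac3 and Hdac8 summed to 74.6 and 75.1 FPKM in ACSS2NLS and to 76.2 and 70.3 FPKM in EV, which was 37.3% and 38.1% of the eraser sum in ACSS2NLS and 37.5% and 36.1% in EV. Hdac3, the catalytic subunit of the NCoR and SMRT corepressors, was at 29.1 and 27.2 FPKM in ACSS2NLS and at 29.3 and 26.4 FPKM in EV. These ranges nearly coincided, and the interval of the difference ran between -0.28 and 0.31 on the log2(FPKM + 1) scale. Hdac8, which works outside the large corepressor complexes, was at 3.08 and 3.21 FPKM in ACSS2NLS and at 3.06 and 2.74 FPKM in EV. Its groups did not overlap, and the log2 change of 0.088 ± 0.15 did not pass (limma, adjusted p = 0.923).

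Hdac1 and Hdac2 are paralogues that share the SIN3, NuRD and CoREST complexes. Hdac2 was at 26.1 and 27.5 FPKM in ACSS2NLS and at 24.8 and 24.0 FPKM in EV. The ACSS2NLS libraries lay above the EV ones, with a log2 change of 0.13 ± 0.11 that did not pass (limma, adjusted p = 0.849). Hdac1 was at 16.3 and 17.2 FPKM in ACSS2NLS and at 19.0 and 17.1 FPKM in EV, with overlapping groups and a log2 change of -0.098 ± 0.12, or -0.17 to -0.025 when each library was left out. The ratio of Hdac2 to Hdac1 was 1.60 in both ACSS2NLS libraries, against 1.31 and 1.41 in EV. This ratio was not tested.

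Of the class IIa deacetylases, which shuttle between nucleus and cytoplasm and have little activity of their own on acetyl-lysine, Hdac7 dominated. Hdac7 was at 26.0 and 28.1 FPKM in ACSS2NLS and at 25.7 and 28.0 FPKM in EV, so each replicate number had nearly the same level in both groups. Hdac5 was at 5.95 and 6.43 FPKM in ACSS2NLS and at 7.88 and 6.96 FPKM in EV. The ACSS2NLS libraries lay below the EV ones, and the log2 change of -0.23 ± 0.14 did not pass (limma, adjusted p = 0.822) and ran between -0.30 and -0.15 when each library was left out. Hdac4 was at 4.40 and 3.41 FPKM in ACSS2NLS and at 3.97 and 3.95 FPKM in EV. Hdac9 was near the limit of detection, at 0.028 and 0.117 FPKM in ACSS2NLS, against a listed 0 and 0.064 FPKM in EV, where 3 tags would be 0.0148 FPKM in the library at 0.

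Hdac6 had the lowest log2 change of the 40 genes. HDAC6 acts mainly on cytoplasmic substrates such as tubulin rather than on histones. Hdac6 (NM_001130416, mm10 chromosome X, minus strand) was at 2.35 and 3.32 FPKM in ACSS2NLS and at 4.20 and 3.84 FPKM in EV. The groups did not overlap, and the mean was 2.83 ± 0.683 FPKM in ACSS2NLS and 4.02 ± 0.257 FPKM in EV (SD, n = 2 each). The log2 change was -0.40 ± 0.18, with an interval between -0.86 and 0.058, and it did not pass (limma, adjusted p = 0.81). Without ACSS2NLS replicate 1 it was -0.22, and without ACSS2NLS replicate 2 it was -0.58. Hdac10, the other class IIb gene, whose product deacetylates polyamines, was at 4.03 and 5.11 FPKM in ACSS2NLS and at 4.24 and 3.99 FPKM in EV, with overlapping groups. Hdac11, the class IV gene, was at 0.025 and 0.167 FPKM in ACSS2NLS and at 0.053 and 0.049 FPKM in EV.

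The sirtuins were led by Sirt7, a nucleolar and nuclear deacetylase, and by Sirt2, a mainly cytosolic one. Sirt7 was at 41.7 and 35.9 FPKM in ACSS2NLS and at 38.3 and 37.6 FPKM in EV. The ACSS2NLS libraries lay on both sides of the EV ones. Sirt2 was at 25.9 and 25.5 FPKM in ACSS2NLS and at 27.4 and 26.0 FPKM in EV, without overlap but with a log2 change of only -0.054 ± 0.11. Sirt6, which acts on chromatin, was at 3.43 and 3.69 FPKM in ACSS2NLS and at 4.11 and 3.61 FPKM in EV, and Sirt1, the main nuclear sirtuin, was at 2.98 and 2.82 FPKM in ACSS2NLS and at 2.64 and 2.24 FPKM in EV. Sirt1 had no overlap between the groups and a log2 change of 0.18 ± 0.16 that did not pass (limma, adjusted p = 0.85), or 0.10 to 0.27 when each library was left out.

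The mitochondrial sirtuins, which do not act on chromatin in the nucleus, pointed in opposite directions. Sirt5, which removes succinyl and malonyl groups, was at 2.62 and 2.71 FPKM in ACSS2NLS and at 2.01 and 2.10 FPKM in EV. The replicates were close together and the groups did not overlap. Its log2 change of 0.26 ± 0.15 did not pass (limma, adjusted p = 0.821) and ranged between 0.24 and 0.28 when each library was left out. Sirt3, the main mitochondrial deacetylase, was at 6.03 and 4.94 FPKM in ACSS2NLS and at 6.78 and 6.05 FPKM in EV. The groups did not overlap, with a log2 change of -0.20 ± 0.15 that did not pass and ran between -0.32 and -0.074 when each library was left out. Sirt3 shares 213 exon bases with genes on the opposite strand.

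Readers were led by Brd2, a BET protein with a pair of bromodomains that binds acetylated histone tails. Brd2 was at 25.5 and 31.4 FPKM in ACSS2NLS and at 36.3 and 26.4 FPKM in EV. The groups overlapped, and the gap between the EV replicates was wider than that between the groups. The log2 change was -0.12 ± 0.19 (limma, adjusted p = 0.917) and turned to 0.021 without ACSS2NLS replicate 1 and to 0.099 without EV replicate 1. Its BET paralogue Brd3 was at 3.11 and 3.80 FPKM in ACSS2NLS and at 3.09 and 3.56 FPKM in EV, so Brd2 was 8.20 and 8.28 times as high as Brd3 in ACSS2NLS and 11.7 and 7.42 times in EV. The deposited Brd2 row is the noncoding RefSeq variant NR_037970.

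The bromodomain proteins of remodelling complexes were at similar levels. Brd7, of the PBAF complex, was at 12.4 and 13.8 FPKM in ACSS2NLS and at 11.1 and 10.8 FPKM in EV. Both ACSS2NLS libraries were above both EV libraries, with a log2 change of 0.23 ± 0.12, an interval between -0.070 and 0.54 and an adjusted p of 0.81 (limma). Brd9, of the noncanonical BAF complex, was at 13.0 and 11.6 FPKM in ACSS2NLS and at 12.8 and 13.7 FPKM in EV, with overlapping groups. Brd8, a subunit of TIP60, was at 10.9 and 11.5 FPKM in ACSS2NLS and at 11.6 and 11.2 FPKM in EV, with overlapping groups.

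Compared by role, the sums of writers, erasers and readers moved by a few percent or less. The 43 genes summed to 449 and 466 FPKM in ACSS2NLS and to 462 and 447 FPKM in EV. Writer enzymes and complex subunits together summed to 190 ± 8.72 FPKM in ACSS2NLS and 185 ± 2.28 FPKM in EV (SD, n = 2 each), a ratio of 1.03. Erasers summed to 199 ± 1.87 FPKM in ACSS2NLS and 199 ± 6.20 FPKM in EV, a ratio of 0.998, and readers to 68.5 ± 5.11 FPKM in ACSS2NLS and 70.3 ± 6.49 FPKM in EV, a ratio of 0.974. Each difference was smaller than the larger of the SDs. The ratio of summed writers to summed erasers was 0.920 and 0.995 in ACSS2NLS, against 0.900 and 0.958 in EV, and the groups overlapped. With writer enzymes alone, without complex subunits, it was 0.501 and 0.551 in ACSS2NLS, against 0.496 and 0.529 in EV, also with overlap. The eraser sum includes the mainly cytoplasmic Hdac6, the mainly cytosolic Sirt2 and the mitochondrial Sirt3 and Sirt5. The writer sum includes the coactivator Ncoa3 and Hat1, which acts on newly made histone H4 before it is deposited on DNA. Hat1 made up 20.2% and 19.1% of the writer sum in ACSS2NLS and 19.6% and 18.9% in EV. In bulk samples fewer cells that express a gene and less of its RNA per cell cannot be told apart.

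**Figure D3:**
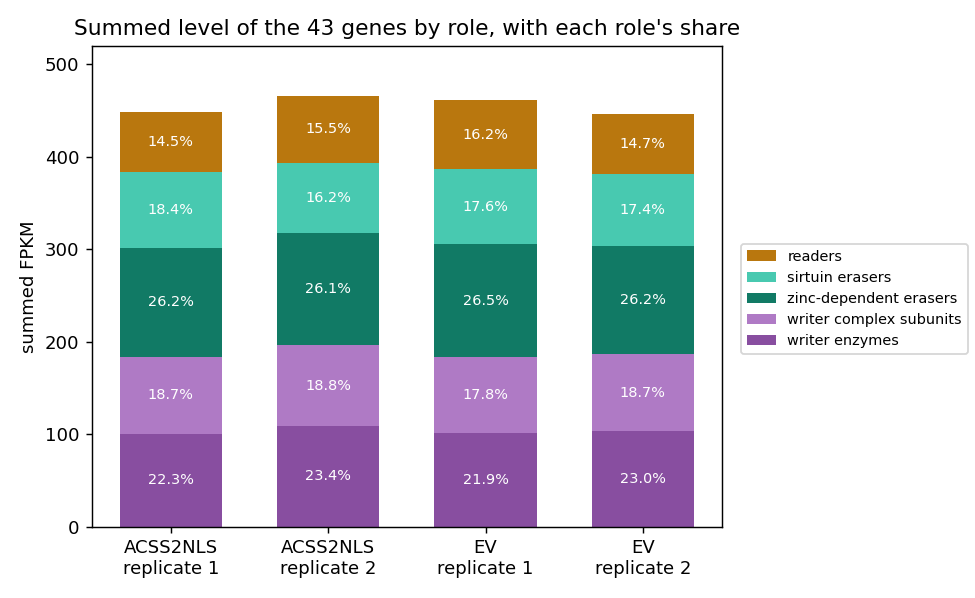
Summed FPKM of the 43 genes in each library (bars from 0), divided by role, with the percentage of the library's sum printed in each segment. ACSS2NLS and EV libraries have nearly the same height, 447 to 466 FPKM, and nearly the same division.

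Counted by gene, the roles gave the same picture. Of the 20 measured writer genes 11 were higher and 9 lower in ACSS2NLS by their mean, and the median log2 change was 0.057. Of the 15 measured erasers 8 were higher and 7 lower, with a median of 0.012. Of the 5 readers 2 were higher and 3 lower, with a median of -0.025. Over all genes tested 53.2% had a higher mean. The groups did not overlap for 6 writers (30.0%), 8 erasers (53.3%) and 1 reader (20.0%), against 37.4% of all genes tested, and in each role these genes did not all lie on the same side except for the lone reader, Brd7. Single libraries moved these medians. The eraser median was below 0 whichever library was left out, between -0.049 and -0.016, the reader median ran between -0.060 and 0.021 and the writer median between 0.0042 and 0.10.

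Replicates differed along the length of the transcript. Of the 9 measured genes with at least 5000 bases of exon in the table, 8 were higher in ACSS2NLS replicate 2 than in replicate 1, with a median difference of 0.28 on the log2(FPKM + 1) scale, Hdac4 being the exception. Among the 31 shorter ones 19 were higher, with a median difference of 0.071. The same was seen over all genes tested, where 81.8% of the long and 54.0% of the shorter ones were higher in ACSS2NLS replicate 2. Of the 40 measured genes 18 had their highest value in ACSS2NLS replicate 2, or 45%, against 33.7% of all genes tested, and 2 had it in EV replicate 2, or 5.0%, against 16.8% of all genes tested. In EV, 4 of the 9 long and 10 of the 31 shorter genes were higher in replicate 2, against 60.4% of the long and 49.5% of the shorter genes over all genes tested. The sums of melanoma and of myeloid markers were also highest in ACSS2NLS replicate 2, though Cd14, S100a8 and S100a9 were highest in EV replicate 2, and the part of such RNA in these differences was not tested. Between the groups, the median log2 change was -0.022 for the long and 0.014 for the shorter genes.

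**Figure D4:**
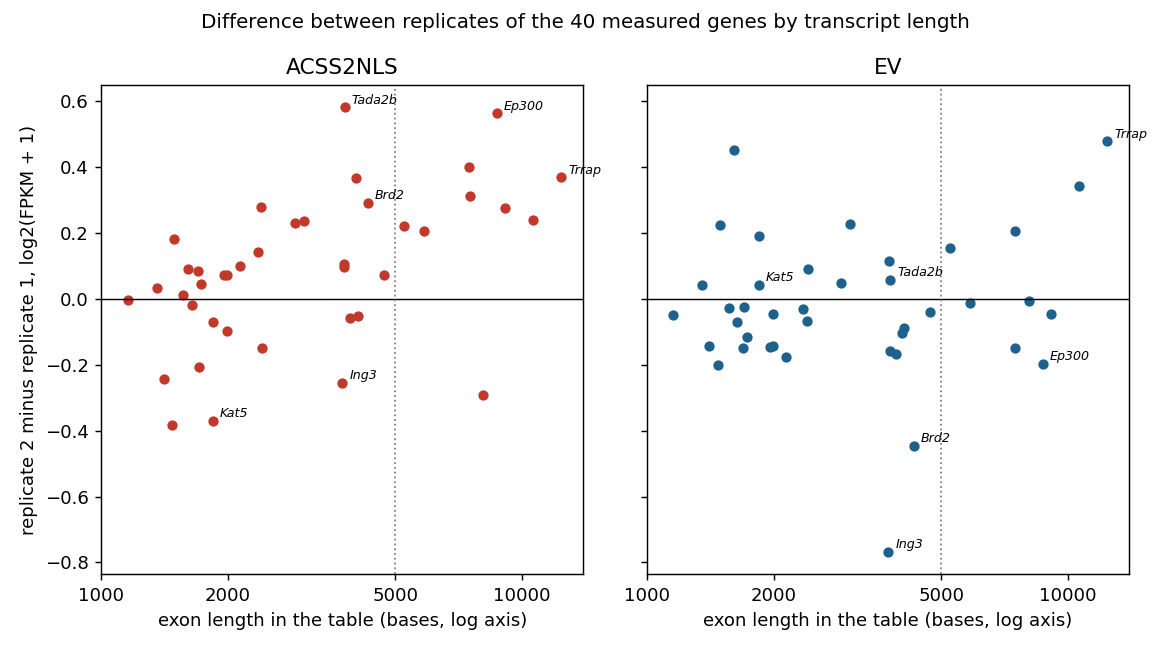
Difference between replicate 2 and replicate 1 of the 40 measured genes (vertical axis, log2(FPKM + 1)) against exon length in bases (log axis), for ACSS2NLS (left) and EV (right); each point is a gene and the dotted line marks 5000 bases. In ACSS2NLS 8 of the 9 genes right of the line lie above 0, in EV 4 of the 9.

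The wider machinery of histone acetylation was described from 4 further lists, with 0 genes past the test in any of them. Of 39 measured genes of other acetyltransferase complex parts, 20 were higher and 19 lower in mean, and the median log2 change was 0.0012. Ruvbl2, an ATPase of TIP60, was at 34.8 and 32.4 FPKM in ACSS2NLS and at 25.6 and 29.0 FPKM in EV, with a log2 change of 0.29 ± 0.12. Ing5, a relative of Ing4 in the HBO1 and MOZ complexes, had 0.31 ± 0.15 and Kansl1, a scaffold of the MOF complex NSL, had -0.22 ± 0.13. These are the 3 genes of the list with the smallest unadjusted p, and none passed over all genes tested.

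Of 38 measured genes of deacetylase corepressor complexes, 22 were higher and 16 lower in mean, and the median log2 change was 0.019. Sap130, a SIN3 subunit, was at 2.25 and 2.43 FPKM in ACSS2NLS and at 1.52 and 1.45 FPKM in EV, with a log2 change of 0.43 ± 0.16 (limma, adjusted p = 0.81). The NuRD subunits Gatad2a and Mta3 had log2 changes of -0.32 ± 0.13 and -0.36 ± 0.15. Mta3 was at 21.6 and 17.7 FPKM in ACSS2NLS and at 27.2 and 23.6 FPKM in EV, without overlap.

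Of 31 other measured acetyl-lysine readers, 19 were higher and 12 lower in mean, and the median log2 change was 0.021. Brwd1, a bromodomain and WD repeat protein, was at 3.60 and 3.53 FPKM in ACSS2NLS and at 2.47 and 2.46 FPKM in EV, with a log2 change of 0.40 ± 0.14 (limma, adjusted p = 0.81). Replicates agreed closely here, and the change was between 0.39 and 0.41 when each library was left out. Ash1l, a histone methyltransferase with a bromodomain, had 0.30 ± 0.15, and Dpf2, a BAF subunit, had -0.15 ± 0.11. Of 5 measured genes that supply NAD, the cofactor of sirtuins, 3 had a higher and 2 a lower mean; Nmrk1, a nicotinamide riboside kinase, was at 4.10 and 3.77 FPKM in ACSS2NLS and at 5.22 and 5.77 FPKM in EV, with a log2 change of -0.39 ± 0.14 (limma, adjusted p = 0.81). Nadsyn1 and Nampt, which make NAD and its precursor, had 0.17 ± 0.16 and 0.17 ± 0.17.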

How the data were processed

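The 2 ACSS2NLS and 2 EV libraries were sequenced after full-length cDNA amplification with a SMART-Seq v4 kit, per the labels' protocols. The submitters' processing notes name STAR 2.5.3a, HOMER and mm10. The deposited values are FPKM with 3 decimals, made by the authors per the file headers with HOMER from sense-strand exon tags of 1 transcript for each gene. Whether strand was kept in the libraries is not stated in the labels. The columns are named Acss2OE and Acss2WT and were read as ACSS2NLS and EV; the header names 8 tag directories and the table has 4 library columns, all used. No count test was run on FPKM. Total tags were derived from the step of low FPKM values, which were whole within a tolerance of 0.1 tag for 100% of values checked (genes 500 to 2000 bases long, at most 50 tags).

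The 9810 genes that averaged 1 FPKM or more were compared as log2(FPKM + 1), which understates changes of low genes, with limma-trend (limma 3.58.1, R 4.3.3). The p-values were two-sided and Benjamini-Hochberg adjusted over all 9810 genes. The test was also run on simulated data with independent noise in each library, which does not cover the correlated deviations given below. Alternatives were pseudocounts of 0.1 and 0.5, no filter, a mean of at least 5 FPKM, quantile normalization, no trend, a replicate block and leaving out each library. Exon overlaps come from the GENCODE M21 basic annotation (GRCm38, the assembly of mm10). All 43 genes may be named; of each role and further list the 3 with the smallest unadjusted p are described with their log2 change, besides the most abundant of each role and close paralogues. Other genes whose log2 change is printed were chosen after their values were seen. The genes and lists were chosen with earlier results of these data known. In the further lists, Mideas and Kat14, and the T cell marker Trac, had no row under those symbols.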

Additional observations from a re-analysis of the deposited data

How the results depend on the processing

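Under every alternative run 0 of the histone acetylation genes passed. The replicate block raised the calls over all 9810 genes to 229 higher and 172 lower in ACSS2NLS, against 2 and 0 without it. It called 0 of the 40 measured histone acetylation genes. The share of all genes called was small under the block too, so this 0 does not set the 40 apart. The shared numbers do not establish pairs; deviations of same-numbered libraries had a correlation of 0.583 over 9810 genes, and the block leaves a single residual degree of freedom. With no filter on low values 1 gene was called higher. When each library was left out, 0 to 9 genes were called lower, the 9 without EV replicate 1, a fit with a lone EV library that is assumed to vary like the ACSS2NLS libraries.

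Leaving out each library moved medians of log2 changes: between -0.027 and 0.065 for all genes of histone acetylation, -0.049 and -0.016 for erasers, -0.034 and -0.019 for zinc-dependent erasers, -0.056 and 0.045 for sirtuins, -0.060 and 0.021 for readers, 0.0042 and 0.10 for writers, and -0.027 and 0.11 for writer complex subunits. The eraser median was -0.021 with a mean of at least 5 FPKM, and under quantile normalization it was 0.041, as was that of zinc-dependent erasers. Brd2 ranged between -0.35 and 0.099, Hdac3 between -0.058 and 0.086 and Nampt between -0.014 and 0.35, so each changed sign. The other 327 values of single genes under the alternatives kept their direction, and with all 4 libraries in the fit their side of the threshold, as did Acss2. These values cover the genes with the smallest unadjusted p of each role and further list, and Hat1, Hdac1, Hdac3 and Sirt2, not all 40. No filter, a mean of at least 5 FPKM, the replicate block and no trend leave a log2 change as it is. Under those 4 alternatives no direction could change. With 2 libraries per group the median half-width of the 95% intervals was 0.38, before any adjustment for the number of genes tested, and Kat6b, Hdac9 and Hdac11 were too low to compare.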
